A study of Mus musculus with 21 samples.

Results

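Macrophages that gather along fibrotic scars carry a shared set of transcripts for taking up, breaking down and moving lipid, and 10 of these genes were followed across 3 separately normalised RNA-seq tables of mouse liver injury. The genes, Trem2, Itgax, Gpnmb, Cd68, Cd63, Cd9, Spp1, Lgals3, Lpl and Fabp5, were chosen by name, and each matched 1 entry in every table, out of 55145 genes listed in at least 1 table. They were proposed with earlier results of these libraries known, in particular that they lay higher in injured than in control liver. That contrast is therefore described without a test.

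The 21 libraries form 7 groups of 3. Wild-type mice received intraperitoneal oil or carbon tetrachloride (CCl4), a hepatotoxin that produces fibrosis, and a further group labelled Sting knock out also received CCl4; the labels give 6 weeks and the design text 8 weeks. Wild-type mice and mice with a hepatocyte-specific Nlrp3 deletion received intraperitoneal thioacetamide (TAA), another fibrosis-producing hepatotoxin, for 8 weeks. Primary wild-type hepatocytes in culture were given lipopolysaccharide (LPS, 1 µg/mL) for 6 h and nigericin (10 µM) for 30 min, without or with MCC950 (10 µM), an inhibitor of the NLRP3 inflammasome, 2 h earlier. STING is an adaptor for cytosolic DNA sensing and NLRP3 the sensor of an inflammasome. By its title the study asks how the former acts on pyroptosis of hepatocytes in fibrosis. No source used here gives the allele of the Sting mice, the driver of the Nlrp3 deletion, or the strain, age and sex of the animals, and controls without TAA or without LPS were not analysed here. Nothing states that the replicates were separate animals or cultures, so each p-value reflects library-to-library spread alone.

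As background, TREM2 is a surface receptor for lipids and lipoproteins that signals through the adaptor TYROBP, and macrophages that express it are found in fatty and scarred liver in mouse and human. GPNMB, CD68 and CD63 are glycoproteins of lysosomal membranes, CD9 is a tetraspanin of the plasma membrane, and CD11c, encoded by Itgax, is an integrin subunit shared by dendritic cells and some recruited macrophages. Osteopontin (Spp1) and galectin-3 (Lgals3) are secreted, lipoprotein lipase (Lpl) frees fatty acids from triglyceride, and FABP5 carries fatty acids inside the cell. Several of the genes are not restricted to macrophages: cholangiocytes also make Spp1, and Cd9 and Cd63 are expressed by most cells.

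Whole liver mixes cell types, and in such samples more cells of a type cannot be told apart from more RNA per cell. Reads per library, recovered from the deposited values, were 14353483 to 16684832 in the CCl4 table and 14883711 to 17157586 in hepatocytes, and total counts were 32096879 to 68913793 in the TAA table. Sting1, listed as Tmem173, was at 6.10, 5.15 and 4.74 FPKM (fragments per kilobase of gene model, scaled to depth) in the wild-type CCl4 livers and at 3.42, 1.98 and 5.28 FPKM in those labelled Sting knockout. Its RNA was thus not lost in all 3 of the latter, whose titles also carry codes beginning with SWT, and the group is called the livers labelled Sting knockout throughout. For Nlrp3 the TAA table holds 36, 24 and 28 counts in wild type against 23, 105 and 83 with the hepatocyte deletion, in libraries of unlike depth. As FPKM these were 0.15, 0.11 and 0.17 against 0.08, 0.37 and 0.25. Its RNA was thus not lower in all 3 libraries with the deletion, and other liver cells also make this RNA. Libraries labelled Sting knockout replicate 2 and wild-type CCl4 replicate 1 stood apart in several lists below, and values without them are given where they matter.

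The sequence just before the transcription start was available for 8 of the 10 genes, in 9 windows of 250 bases (RefSeq, GRCm38.p6, the assembly of which mm10 is another name). They are shown because 9 of the 10 genes lay higher together with CCl4, and the windows were searched on both strands for short motifs of factors active in macrophages. The motifs were TGAGTCA, bound by AP-1 (its reverse complement TGACTCA is the same site), AGGAAGT, a core bound by PU.1, and 3 forms of the E-box bound by the MiT/TFE factors that drive lysosomal genes. Those forms were CACGTG (E-box), a form with T inside, TCATGTG, and the flanked form, TCACGTG, which overlaps the first. In capitals are the matches in the Itgax window at chr7:128129300-128129549 (+ strand), the Cd68 window at chr11:69666171-69666420 (− strand) and the first Spp1 window at chr5:104434861-104435110 (+ strand). Gpnmb, at chr6:49036268-49036517 (+ strand), is shown as the gene with the highest ratio of CCl4 to oil, and it has no match.
Itgax: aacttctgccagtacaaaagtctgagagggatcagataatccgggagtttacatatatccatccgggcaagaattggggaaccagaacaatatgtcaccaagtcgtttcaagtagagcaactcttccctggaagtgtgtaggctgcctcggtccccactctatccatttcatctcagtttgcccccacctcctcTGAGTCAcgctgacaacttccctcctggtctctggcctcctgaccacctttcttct
Cd68: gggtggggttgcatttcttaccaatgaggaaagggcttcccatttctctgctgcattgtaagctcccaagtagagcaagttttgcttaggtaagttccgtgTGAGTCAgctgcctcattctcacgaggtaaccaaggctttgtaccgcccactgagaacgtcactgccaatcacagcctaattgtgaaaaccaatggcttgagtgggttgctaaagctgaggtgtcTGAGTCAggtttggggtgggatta
Spp1: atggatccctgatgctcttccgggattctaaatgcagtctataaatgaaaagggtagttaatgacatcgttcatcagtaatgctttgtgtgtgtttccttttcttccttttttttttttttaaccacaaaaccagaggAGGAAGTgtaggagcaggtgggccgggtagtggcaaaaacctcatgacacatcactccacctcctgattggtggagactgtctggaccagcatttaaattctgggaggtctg
Gpnmb: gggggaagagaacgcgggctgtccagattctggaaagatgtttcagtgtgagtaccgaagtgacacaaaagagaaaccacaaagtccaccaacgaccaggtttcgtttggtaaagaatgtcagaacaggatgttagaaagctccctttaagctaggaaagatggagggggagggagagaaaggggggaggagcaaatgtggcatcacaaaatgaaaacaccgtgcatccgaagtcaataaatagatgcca
Each sequence reads 5′ to 3′ toward the start. Itgax held 1 TGAGTCA, at −56 to −50 from the start, and Cd68 held 2, at −149 to −143 and at −24 to −18. The first Spp1 window held AGGAAGT at −112 to −106. Over all 32851 promoter windows cut to the same length, 4.46% held the AP-1 motif, 7.69% AGGAAGT, 6.02% CACGTG, 3.25% TCATGTG and 3.13% TCACGTG. No other match occurred among the 9 windows: those of Trem2, Cd9, Cd63 and Lgals3 and the second Spp1 window had none. A match is a run of letters and does not show binding.

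With CCl4, 9 of the 10 genes lay above oil in every wild-type library, and Fabp5 did not. The largest ratio belonged to Gpnmb, which went from the lowest of the 10 levels in oil to the middle of them in CCl4. Across all 11511 genes averaging at least 1 FPKM, 16.6% lay higher in CCl4 with no overlap, and since the genes were chosen for this contrast nothing is read from that comparison. The median log2 difference of the 10 genes was 2.57, against −0.08 over all genes tested, both taken on log2(FPKM + 1), a scale that shrinks differences of scarce transcripts.

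Trem2 (ENSMUSG00000023992, chr17:48346401-48354147, + strand) was at 0.306, 0.278 and 0.189 FPKM in oil livers and at 9.45, 10.6 and 5.14 FPKM in wild-type CCl4 livers. Every CCl4 library was far above every oil library, from 10 to 23 reads in oil and 473 to 1004 reads in CCl4, and the ratio of means was 32.6. Itgax (ENSMUSG00000030789, chr7:128129547-128150657, + strand) went from 0.520, 0.223 and 0.409 FPKM to 3.46, 3.32 and 4.10 FPKM. The 3 CCl4 values of Itgax were close to each other, and its log2 difference was 1.74 (SE 0.19, n = 3 libraries per group). With a pseudocount of 0.1 the log2 difference of Itgax was 2.99 and that of Trem2 was 4.52 in place of 2.85 (SE 0.31). Both were the scarcest of the 10 transcripts in CCl4 liver.

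Gpnmb (ENSMUSG00000029816, chr6:49036546-49070929, + strand) was at 0.0504, 0.0469 and 0.0575 FPKM in oil, from 5, 4 and 4 reads, and at 27.1, 30.6 and 27.0 FPKM in CCl4, from 3208, 3799 and 3268 reads. The gene was thus close to the detection limit in oil and well measured after injury, with the smallest spread for its mean of the 10 genes in CCl4, and its log2 difference of 4.79 (SE 0.25) became 7.54 with a pseudocount of 0.1. Cd68 (ENSMUSG00000018774, chr11:69664213-69666153, − strand), a general lysosomal marker of macrophages, was already at 10.3, 10.9 and 9.61 FPKM in oil and reached 63.8, 72.3 and 42.7 FPKM. Its ratio of means was 5.81, and its groups did not overlap. The ratio of Gpnmb to Cd68 within a library was 0.0043 to 0.0060 in oil and 0.422 to 0.632 in CCl4.

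Cd63 (ENSMUSG00000025351, chr10:128900989-128912822, + strand) was at 1.43, 1.43 and 0.916 FPKM in oil and at 11.7, 26.2 and 18.2 FPKM in CCl4. The processed pseudogene Cd63-ps was listed at 0.961 to 1.18 FPKM in oil and 5.53 to 9.28 FPKM in CCl4, and since reads of near-identical copies may be split between them the level of Cd63 is uncertain. Cd9 (ENSMUSG00000030342, chr6:125460266-125494791, − strand) rested on a higher floor, at 7.62, 9.50 and 9.53 FPKM in oil, and on a smaller distance, at 16.4, 22.7 and 35.2 FPKM in CCl4. Its groups stayed apart, with a log2 difference of 1.32 (SE 0.29). Low antisense annotations overlap Cd9, and no source used here says whether counting used strand.

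Spp1 (ENSMUSG00000029304, chr5:104435118-104441050, + strand) was the most abundant of the 10 in both groups, at 25.3, 22.5 and 30.4 FPKM in oil and 49.8, 276 and 241 FPKM in CCl4. The CCl4 livers did not form 1 cluster: replicate 1 was closer to the oil livers than to the other two. Without it the log2 difference was 3.27 in place of 2.48. Lgals3 (ENSMUSG00000050335, chr14:47367751-47386160, + strand) went from 3.85, 4.16 and 2.32 FPKM to 45.8, 99.4 and 34.5 FPKM, with a log2 difference of 3.66 (SE 0.38). Its ratio of means, 17.4, was the third highest of the 10 genes.

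The genes of fatty acid supply differed in whether their groups overlapped. Lpl (ENSMUSG00000015568, chr8:68880491-68907448, + strand) was at 3.04, 4.55 and 6.19 FPKM in oil and at 32.5, 26.0 and 44.4 FPKM in CCl4, a ratio of means of 7.47 with no overlap. Fabp5 (ENSMUSG00000027533, chr3:10012548-10016607, + strand) was at 13.5, 9.22 and 4.02 FPKM in oil and at 8.02, 15.2 and 35.3 FPKM in CCl4. Its groups overlapped, because CCl4 replicate 1 lay below 2 of the oil libraries, and without that library the log2 difference moved from 0.95 (SE 0.50) to 1.42 and the groups no longer overlapped.

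**Figure D1:**
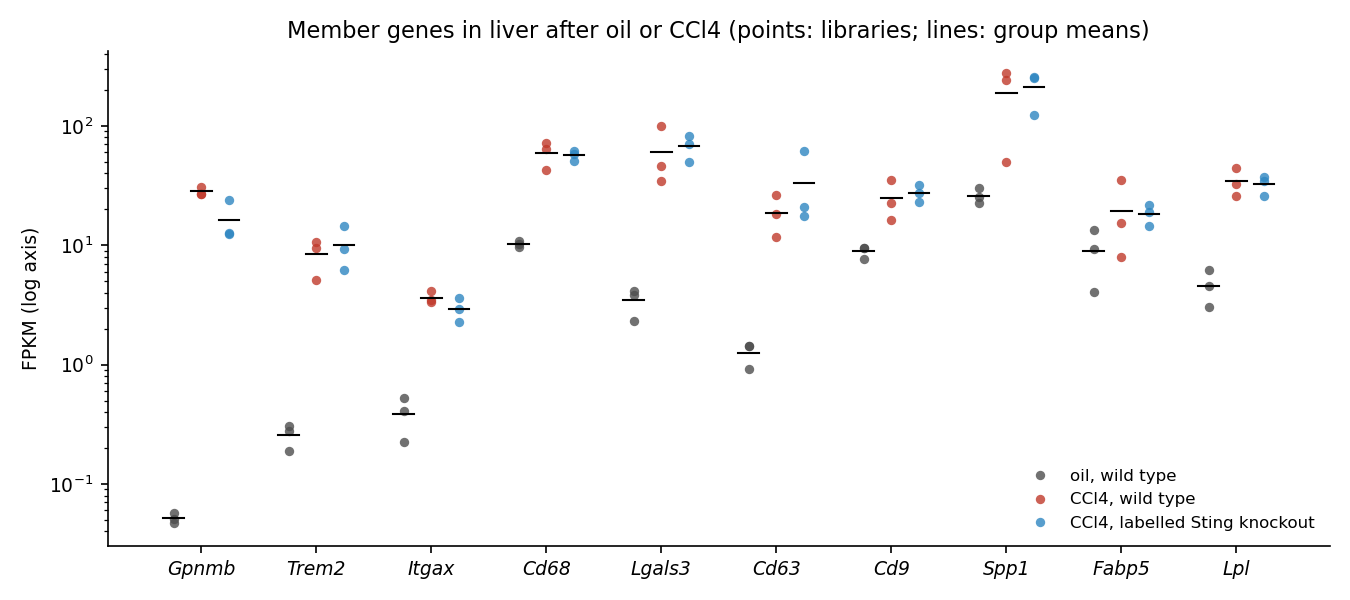
FPKM of the 10 genes (log axis) in livers given oil, livers given CCl4 and CCl4 livers labelled Sting knockout; each point is 1 of 3 libraries and each line a group mean. All genes but Fabp5 have every CCl4 point of the wild type above every oil point, and Gpnmb moves from 0.05 FPKM to between 27.0 and 30.6 FPKM.

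Levels between genes can be compared per length of the deposited gene models, which merge all exons of a gene. In oil liver the order of mean FPKM was Spp1 (26.1), Cd68 (10.3), Fabp5 (8.92), Cd9 (8.88), Lpl (4.60), Lgals3 (3.44), Cd63 (1.26), Itgax (0.384), Trem2 (0.258) and Gpnmb (0.0516). Of these neighbours, Cd68 and Fabp5, Fabp5 and Cd9, Lpl and Lgals3, and Itgax and Trem2 overlapped between libraries. In wild-type CCl4 liver the order was Spp1 (189), Lgals3 (59.9), Cd68 (59.6), Lpl (34.3), Gpnmb (28.2), Cd9 (24.7), Fabp5 (19.5), Cd63 (18.7), Trem2 (8.41) and Itgax (3.63). There only Cd63 and Trem2, and Trem2 and Itgax, were neighbours whose libraries did not overlap.

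In CCl4 livers labelled Sting knockout, the same oil libraries served as the reference, and all 10 genes, Fabp5 included, lay above them with no overlap, where 17.8% of all genes did so. The log2 differences from oil were 3.98 for Gpnmb, 3.94 for Lgals3, 3.71 for Cd63, 3.06 for Trem2, 2.90 for Spp1, 2.61 for Lpl, 2.36 for Cd68, 1.52 for Cd9, 1.503 for Itgax and 1.08 for Fabp5. The wild-type values against the same oil libraries were 4.79, 3.66, 3.06, 2.85, 2.48, 2.66, 2.40, 1.32, 1.74 and 0.95 in that order. The 2 sets share their controls, so their likeness is no independent result. Between 26.0 and 37.5 FPKM of Lpl, and between 2.29 and 3.61 FPKM of Itgax, were found in the livers labelled Sting knockout.

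Other genes of the same pathways were counted from lists that were also drawn up with earlier results known, so their counts are not independent evidence of a direction. For TREM2 signalling, 6 of 9 genes rose with CCl4 and 0 fell (limma, adjusted p under 0.05), where 9.19% of all genes rose and 6.15% fell. Tyrobp, the adaptor of TREM2, went from 23.6 ± 7.12 to 93.3 ± 31.4 FPKM (SD, n = 3 each, limma adjusted p = 0.0038). Syk, the kinase recruited by it, went from 0.807 ± 0.263 to 4.45 ± 1.62 FPKM (limma adjusted p = 0.0067).

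Of 21 lysosomal and MiT/TFE genes, 8 rose and 0 fell. The cysteine proteases Ctss and Ctsk led the list. Ctss went from 32.5 ± 4.64 to 231 ± 108 FPKM (SD, n = 3 each, limma adjusted p = 0.00067), and Ctsk from 0.174 ± 0.0733 to 4.83 ± 1.32 FPKM (limma adjusted p = 0.00056). The count fell to 4 without wild-type CCl4 replicate 1, to 3 without oil replicate 1 or 2 and to 4 without oil replicate 3, while Ctss and Ctsk passed in each of these fits.

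Of 12 lipid uptake and storage genes tested, 4 rose and 0 fell. Soat1, which esterifies cholesterol, went from 0.700 ± 0.224 to 4.01 ± 1.25 FPKM (SD, n = 3 each, limma adjusted p = 0.0026), and the scavenger receptor Msr1 from 4.39 ± 1.43 to 14.2 ± 3.60 FPKM (limma adjusted p = 0.0052). The count was 2 without oil replicate 1 or 3. Of 10 partners of LPL, 0 rose and 2 fell. Hepatic lipase (Lipc) fell from 86.8 ± 4.27 to 31.0 ± 6.03 FPKM (limma adjusted p = 0.0073). Apoa5, an apolipoprotein that activates LPL, fell from 340 ± 63.6 to 148 ± 54.1 FPKM (limma adjusted p = 0.045), a call that was lost when any 1 of 5 libraries was left out, with limma adjusted p from 0.0736 to 0.154; it held without wild-type CCl4 replicate 2 and was lost without the filter on low FPKM (0.0909). Both are liver-secreted proteins.

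Among 12 receptors and relatives of osteopontin and galectin-3, 3 rose and 0 fell, and without oil replicate 3 only 1 rose. Cd44, a receptor of osteopontin, went from 1.83 ± 0.399 to 10.9 ± 2.22 FPKM (SD, n = 3 each, limma adjusted p = 0.0004). Lgals1, galectin-1, went from 20.6 ± 6.70 to 80.3 ± 51.7 FPKM (limma adjusted p = 0.020), with the call lost without oil replicate 3 (adjusted p = 0.087) or wild-type CCl4 replicate 2 (adjusted p = 0.0501). Of 10 other tetraspanins, 3 rose and 1 fell. Cd53, a tetraspanin of leukocytes, went from 7.92 ± 3.51 to 36.6 ± 16.6 FPKM (limma adjusted p = 0.0044). Tspan3 went from 1.22 ± 0.143 to 4.78 ± 1.14 FPKM (limma adjusted p = 0.0013). The 1 fall was lost without wild-type CCl4 replicate 1 or 3 or any oil library, and Lgals1 also without the filter on low FPKM (adjusted p = 0.058).

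The other fatty acid binding proteins split, as 2 of 4 tested rose and 1 fell. Fabp7 went from 3.80 ± 1.39 to 11.1 ± 3.43 FPKM (SD, n = 3 each, limma adjusted p = 0.014), and Fabp2 fell from 59.5 ± 6.85 to 19.6 ± 4.18 FPKM (limma adjusted p = 0.022). Neither held in every fit with a library left out: Fabp7 was lost without oil replicate 1 (adjusted p = 0.063), and Fabp2 without wild-type CCl4 replicate 2 or any oil library (adjusted p from 0.058 to 0.084) or without the filter (0.060). The rise count was 1 without wild-type CCl4 replicate 2 or 3 or oil replicate 2 or 3, and 0 without oil replicate 1. Of 2 other beta2 integrin genes tested, the shared chain Itgb2, which pairs with CD11c, rose from 4.30 ± 0.391 to 28.9 ± 12.0 FPKM (limma adjusted p = 0.00089), and the count was 2 without wild-type CCl4 replicate 2 or any oil library. Of 19 further genes reported in scar-associated macrophages, a list drawn up for this contrast, 16 rose and 0 fell. Among them the elastase Mmp12 went from 0.0549 ± 0.0534 to 16.9 ± 12.2 FPKM (limma adjusted p = 0.0018) and the chemokine Ccl6 from 6.15 ± 1.39 to 74.8 ± 33.5 FPKM (limma adjusted p = 0.00018).

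Markers of several cell types moved with the 10 genes. Of 11 macrophage markers 8 rose and 0 fell, and 4 rose without oil replicate 1 or 3. Their summed level was 255 to 370 FPKM in oil and 1091 to 1608 FPKM in wild-type CCl4 liver. All 5 monocyte markers rose (3 without any 1 oil library), with sums of 5.59 to 6.999 and 38.8 to 63.6 FPKM, as did 3 of 9 Kupffer cell markers, with sums of 176 to 277 and 286 to 1154 FPKM. The Kupffer cell sum of wild-type CCl4 replicate 1 was 1154 FPKM against 286 and 474 FPKM in the other two. The 4 neutrophil markers tested and 5 of 7 stellate cell and myofibroblast markers rose as well, with stellate cell sums of 16.9 to 19.2 and 118 to 321 FPKM, and 0 of 4 cholangiocyte markers did, with sums of 12.4 to 13.9 and 13.0 to 40.2 FPKM. Of 6 endothelial cell markers 1 rose, Lyve1, from 3.28 ± 0.205 to 7.72 ± 1.15 FPKM (SD, n = 3 each, limma adjusted p = 0.019), a call lost without the filter (adjusted p = 0.051), without wild-type CCl4 replicate 3 or without any oil library (0.055 to 0.071), while their sums overlapped at 57.0 to 66.3 and 56.8 to 73.1 FPKM. Of 8 hepatocyte markers 0 rose and 1 fell, Cyp2e1, a cytochrome P450 that activates CCl4, from 3236 ± 847 to 210 ± 172 FPKM (limma adjusted p = 0.0033), with sums of 49343 to 67191 and 35781 to 53269 FPKM. Dendritic cell marker sums were 2.23 to 2.64 FPKM in oil and 3.93 to 6.04 FPKM in wild-type CCl4 liver. In the same order, T and NK cell sums were 1.71 to 2.01 and 2.43 to 14.8 FPKM. B and plasma cell sums were 2.38 to 3.26 and 8.34 to 34.9 FPKM, and 0 markers of these lists were called. The part of any of these cell types in the levels of the 10 genes was not tested.

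Each gene was also set against the mean log2 level of the 11 macrophage markers in the same library, on the log2(FPKM + 0.1) scale, as a description. On this measure 6 genes lay higher in wild-type CCl4 than in oil with no overlap and 4 did not. The share of all genes on this measure was not computed and the genes were chosen for this contrast, so nothing is read from the count. Gpnmb was at −6.34, −6.79 and −6.24 in oil and at −1.36, −0.22 and −0.46 in CCl4, so that it lay nearer to the markers' mean level. The other genes without overlap were Trem2, with a difference of 2.76, Lgals3 (2.21), Cd63 (1.98), Itgax (1.23) and Cd68 (0.73). Itgax separated only narrowly, at −4.289 in wild-type CCl4 replicate 1 against −4.297 in oil replicate 1. With a pseudocount of 1 the difference of Itgax was 0.096 and overlapped, which left 5 genes, and those of Gpnmb and Trem2 were 3.15 and 1.21. With Lyz2 and the 3 C1q genes left out of the marker mean, Lpl also separated (1.23).

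Cd9 (−0.36), Fabp5 (−0.74), Spp1 (0.76) and Lpl (1.13) overlapped between oil and CCl4 on that measure. Wild-type CCl4 replicate 1 was the lowest of the 3 wild-type CCl4 libraries for every gene followed, with or without overlap. Its values were −2.08 for Cd9, −3.10 for Fabp5, −0.48 for Spp1 and −1.10 for Lpl. Without it Spp1 and Lpl also separated, which made 8 genes, and the differences of Cd9 and Fabp5, still overlapping, turned to 0.21 and 0.079. Lpl also separated without oil replicate 3 (1.45).

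**Figure D2:**
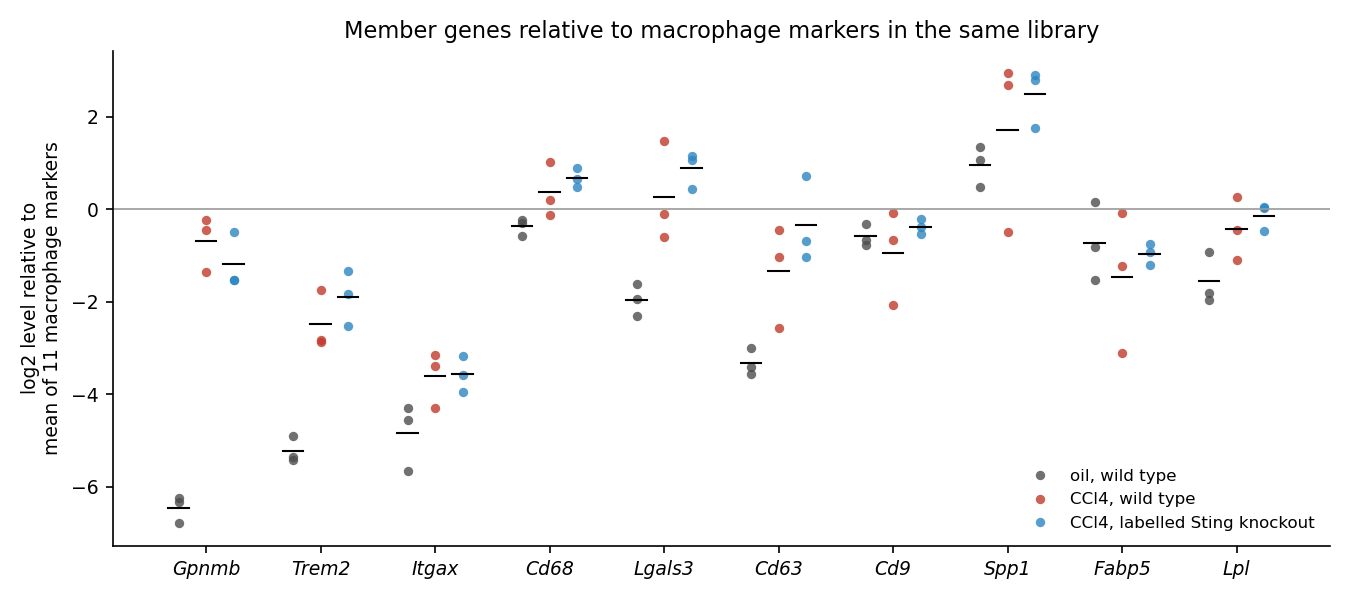
Log2 level of each of the 10 genes minus the mean log2 level of 11 macrophage markers in the same library (log2(FPKM + 0.1)), by group; points are libraries, lines group means, and 0 is the markers' mean. Gpnmb, Trem2, Lgals3, Cd63, Itgax and Cd68 have no overlap between oil and wild-type CCl4, while Cd9, Spp1, Fabp5 and Lpl do.

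Over the 9 libraries of the CCl4 table, the pattern most like the mean of the 10 genes, by Pearson r of log2(FPKM + 1) among 10443 coding genes, was that of Psat1, an enzyme of serine synthesis (r = 0.993). Psat1 was at 0.263, 0.234 and 0.330 FPKM in oil, at 2.24, 3.40 and 4.20 FPKM in wild-type CCl4 liver and at 3.20, 4.74 and 3.62 FPKM in the livers labelled Sting knockout. Sparc, Vim, Col3a1 and Tes followed, with r from 0.9907 to 0.9914. Of the 10 genes, Fabp5 was least like the mean of the other 9 (r = 0.644) and Lgals3 most (r = 0.966). These correlations describe libraries that share the oil and CCl4 contrast.

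The livers labelled Sting knockout were compared with wild type under CCl4 to ask whether the genes differ between these labels. Sting1 RNA was not lost in all of the former, and no source used here gives the allele or the protein level. Whether STING was lost is thus not known, and the comparison is read as one between labels only. None of the 10 genes was called different (limma, adjusted p under 0.05), and 0% of the 11511 genes tested were, with 366 at an unadjusted p under 0.05 (662 by edgeR on the recovered reads, which also called 0). Gpnmb was the 1 gene without overlap. It was at 27.1, 30.6 and 27.0 FPKM in wild type and at 12.5, 12.6 and 23.7 FPKM in the livers labelled Sting knockout. The log2 difference was −0.82 (SE 0.25), and it did not pass adjustment (limma adjusted p = 0.761). Of all genes, 2.78% lay lower with no overlap. Across the alternatives its adjusted p ran from 0.396 to 1, and with the replicate numbers as a block it was 0.520.

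The other 9 genes overlapped, with log2 differences from −0.24 for Itgax to 0.64 for Cd63 and adjusted p from 0.761 to 0.960. Trem2 was at 9.45, 10.6 and 5.14 FPKM in wild type and at 6.20, 14.5 and 9.35 FPKM in the livers labelled Sting knockout, with the highest value in replicate 2 of the latter. Cd63 showed the same library as its highest, at 60.9 FPKM against 17.6 and 20.9 FPKM in replicates 1 and 3, and Cd63-ps stood at 24.9 FPKM there. Without that library the log2 difference of Cd63 was 0.10 in place of 0.64, and that of Trem2 was −0.072 in place of 0.21. Spp1 was at 123, 258 and 251 FPKM, Lgals3 at 49.4, 82.4 and 69.9 FPKM and Cd68 at 50.3, 58.1 and 61.9 FPKM in the livers labelled Sting knockout, all within the wild-type range.

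No gene of the pathway lists or marker lists was called in this comparison. The smallest p in the lists belonged to Mertk, a receptor for apoptotic cells on the macrophage list, at 11.8 ± 5.41 FPKM in wild type and 4.87 ± 1.83 FPKM in the livers labelled Sting knockout (SD, n = 3 each, limma adjusted p = 0.761). Cd44 was at 10.9 ± 2.22 and 6.72 ± 1.56 FPKM (limma adjusted p = 0.761). The macrophage markers summed to 1091 to 1608 and 918 to 1385 FPKM, ranges that overlapped. Relative to those markers all 10 genes overlapped between the groups.

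The TAA livers were compared to ask whether these genes differ between wild type and the livers labelled with a hepatocyte Nlrp3 deletion, whose Nlrp3 RNA was not lower in all 3 libraries. None of the 10 was called (edgeR quasi-likelihood test, adjusted p under 0.05), where 1.37% of 18619 genes tested were higher and 0.36% lower. Of the 10, 5 had an estimated difference above 0.7 on the log2 scale, and Lpl came nearest to the threshold. The values below are CPM, counts scaled to library size with TMM factors, the scale of that test.

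Lpl was at 22.6, 21.5 and 35.3 in wild type and at 68.5, 52.8 and 51.5 in the livers with the deletion. All 3 libraries with the deletion were above all 3 wild-type libraries, with a log2 difference of 1.08 (SE 0.26, edgeR adjusted p = 0.056). Fabp5 was at 5.96, 7.47 and 10.7 in wild type and at 12.2, 16.7 and 13.7 with the deletion, the 1 other gene without overlap (log2 difference 0.78, SE 0.28, edgeR adjusted p = 0.122). By this measure 18.9% of all genes lay higher with no overlap. Lpl passed with DESeq2 (adjusted p = 0.0038), with limma on FPKM (0.020) and without the filter on low counts (0.028), and Fabp5 with limma on FPKM (0.037). Of all genes, DESeq2 called 3659 of 33475, limma on FPKM 2642 of 11165 and the fit without the filter 1593 of 33475. The quasi-likelihood test called 322 of 18619.

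In 3 genes the livers with the deletion were split. Gpnmb was at 12.7, 31.4 and 52.2 against 19.7, 11.7 and 22.0 in wild type, with a log2 difference of 0.81 (SE 0.48, edgeR adjusted p = 0.295). Cd68 was at 15.0, 24.8 and 33.3 against 13.7, 13.6 and 16.3 (0.70, SE 0.29, edgeR adjusted p = 0.162). Cd9 was at 21.8, 43.6 and 39.9 against 22.3, 17.6 and 22.7 (0.71, SE 0.28, edgeR adjusted p = 0.147). Replicate 1 with the deletion lay within the wild-type range in all of these, and the other two lay above it. Without that library 5 genes were called: Cd9 (adjusted p = 0.0041), Cd68 (0.0063), Lpl (0.016), Gpnmb (0.018) and Fabp5 (0.039), and 7555 genes in all.

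The other 5 genes did not separate. Spp1 was at 134, 173 and 338 in wild type and 174, 318 and 351 with the deletion, and Trem2 at 10.3, 11.3 and 15.9 and at 12.2, 14.6 and 14.1. Wild-type replicate 3 was the highest wild-type library for each of the 10 genes. Lgals3 was at 48.5, 38.7 and 70.1 and at 47.7, 36.5 and 40.9, Cd63 at 165, 158 and 203 and at 171, 154 and 163, and Itgax at 5.69, 5.64 and 8.70 and at 4.47, 6.78 and 6.78. For Lgals3, Cd63 and Itgax the log2 difference was −0.37, −0.15 and −0.19 on TMM-scaled counts and 0.039, 0.23 and 0.097 on log2(FPKM + 1). The median was 0.33 over the 11165 genes tested on the FPKM scale and −0.04 over the 18619 tested on the count scale, which are unlike sets. The 3 genes lay below the median on both, but none of them was called on either. The FPKM + 1 scale shrinks differences of a scarce transcript such as Itgax.

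**Figure D3:**
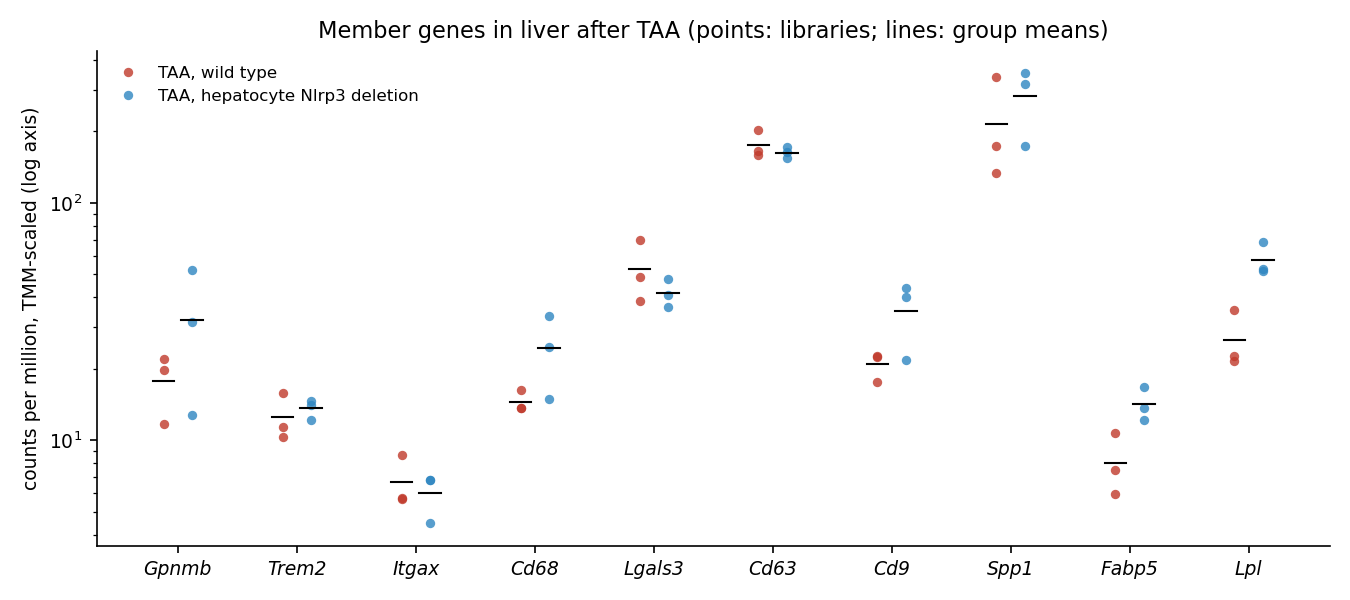
TMM-scaled CPM of the 10 genes (log axis) in TAA livers of wild-type mice and of mice with a hepatocyte Nlrp3 deletion; points are libraries, lines group means. Lpl and Fabp5 have all points with the deletion above the wild type, while for Gpnmb, Cd68 and Cd9 the lowest point with the deletion lies among the wild-type points.

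Marker levels moved with genotype in the TAA table. The 8 hepatocyte markers summed to 10088 to 10647 FPKM in wild type and 27083 to 35725 FPKM with the deletion, and 1 of them, Trf, was called higher (746 ± 86.7 and 3150 ± 825 FPKM, SD, n = 3 each, edgeR adjusted p = 0.049). The 11 macrophage markers, 0 of them called, summed to 107 to 128 FPKM in wild type and to 160, 346 and 443 FPKM with the deletion, with replicate 1 the lowest. Kupffer cell markers summed to 62.8 to 71.9 FPKM in wild type and 74.7 to 180 FPKM with the deletion, and endothelial cell markers to 14.8 to 15.9 and 21.8 to 53.1 FPKM. Dendritic cell markers, whose cells share Itgax, summed to 4.49 to 5.24 FPKM in wild type and to less with the deletion, 3.10 to 4.10 FPKM. No gene of these 3 lists was called. The part of any list in the levels of the 10 genes was not tested. Against the macrophage markers of the same library, Cd68 was at 0.53, 0.28 and 0.60 in wild type and at 0.58, 0.31 and 0.41 with the deletion. Lpl (0.39), Fabp5 (0.092), Gpnmb (−0.057) and Cd9 (−0.017) also overlapped on that measure, and Itgax alone did not, with a difference of −0.86. Without replicate 1 with the deletion, 4 genes lay lower on that measure with no overlap: Trem2, Lgals3, Cd63 and Itgax. Without wild-type replicate 2 the 4 were Gpnmb, Lgals3, Cd63 and Itgax. The share of all genes on that measure was not computed, so nothing is read from these counts.

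Of 21 lysosomal and MiT/TFE genes, 2 were called higher with the deletion and 0 lower, where 1.37% of all genes were called higher, and both encode abundant lysosomal proteins. Ctsl went from 25.0 ± 4.86 to 90.5 ± 25.7 FPKM and Lamp1 from 55.7 ± 11.4 to 195 ± 57.2 FPKM (SD, n = 3 each, edgeR adjusted p = 0.049 for each). Fabp2 went from 19.9 ± 4.06 to 59.3 ± 14.3 FPKM (edgeR adjusted p = 0.049). These calls, and that of Trf, were lost with RLE factors (adjusted p = 0.0506), with the replicate block (0.080) and when any 1 library but replicate 1 with the deletion was left out. The count over all genes, 322, fell to 0 without wild-type replicate 2 or 3, to 2 and 3 without replicates 2 and 3 with the deletion and to 16 without wild-type replicate 1.

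In wild-type TAA liver the order of mean FPKM was Spp1 (97.0), Cd63 (35.3), Lgals3 (21.2), Cd68 (8.52), Cd9 (7.59), Gpnmb (2.06), Lpl (1.88), Trem2 (1.87), Fabp5 (1.66) and Itgax (1.03). Neighbours whose libraries did not overlap were Spp1 and Cd63, Lgals3 and Cd68, and Cd9 and Gpnmb. Over the 6 TAA libraries, Gpx3, a secreted glutathione peroxidase, was the coding gene most like the mean of the 10 (r = 0.996 among 9709 genes), followed by Rhoc, Ubqln2, Sugt1 and Fuca2. Gpx3 was at 12.4, 7.74 and 21.2 FPKM in wild type and 16.5, 27.1 and 24.6 FPKM with the deletion. Lgals3 was the least like the other 9 (r = 0.510) and Trem2 the most (r = 0.979). The order of likeness thus began with other genes than in the CCl4 table, in tables that were normalised separately.

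Cultured hepatocytes show which of the 10 transcripts are measured where macrophage markers are low. Over the 6 libraries Cd63 (69.6 ± 2.61 FPKM, SD), Fabp5 (63.0 ± 2.95), Spp1 (53.4 ± 6.13), Cd9 (50.6 ± 5.54) and Cd68 (31.0 ± 3.39) were abundant, and Lgals3 was low (2.30 ± 0.32). Lpl, Gpnmb and Itgax were near 0, with 3 to 7, 0 to 10 and 0 to 1 reads per library. Trem2 had 0 reads in all 6, which allows up to 3 reads or 0.0340 to 0.0409 FPKM per library, for counting error only. Neighbours in this order overlapped from Cd63 down to Cd9, while Cd9 and Cd68, Cd68 and Lgals3, and Lgals3 and Lpl did not.

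Of the 11 macrophage markers, 9 lay under 1 FPKM in every hepatocyte library. Cd14, the LPS co-receptor, was the exception, at 67.6 to 72.9 FPKM, and Mertk reached 1.20 FPKM in 1 library. Lyz2, the most abundant macrophage marker in CCl4 liver, was at 0.279 to 0.554 FPKM. All 5 monocyte markers and all 7 neutrophil markers were under 1 FPKM, and 8 of 9 Kupffer cell markers were, the other being the iron exporter Slc40a1. Hepatocyte markers summed to 36920 to 42692 FPKM. Of 6 cholangiocyte markers 2 lay above 1 FPKM in at least 1 library, with sums of 9.26 to 10.6 FPKM, and of 6 endothelial cell markers 2 did, with sums of 3.55 to 4.68 FPKM; the part of the former in Spp1, which cholangiocytes also make, was not tested. Cd63-ps was listed at 29.8 to 34.8 FPKM, which leaves the level of Cd63 uncertain here too.

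**Figure D4:**
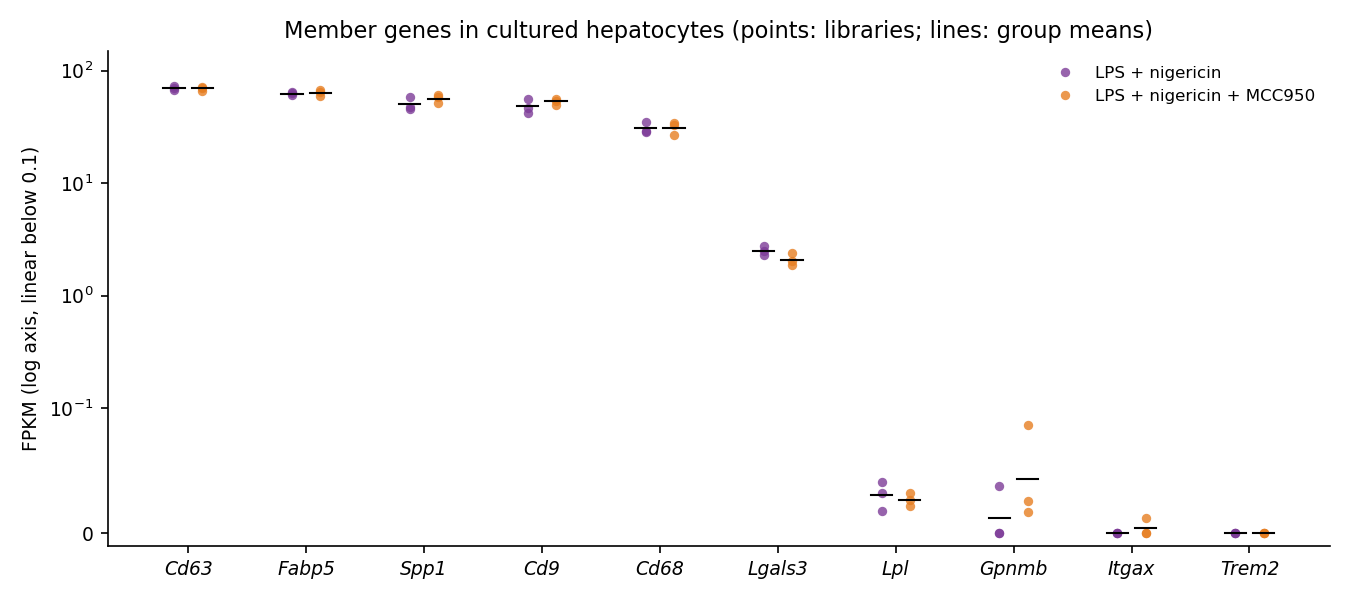
FPKM of the 10 genes in cultured hepatocytes given LPS and nigericin, without or with MCC950 (axis logarithmic above 0.1 and linear below); points are libraries, lines group means, and genes are ordered by mean level. Cd63, Fabp5, Spp1, Cd9 and Cd68 lie between 26.7 and 73.2 FPKM, Lgals3 near 2.30 FPKM and the other 4 below 0.1 FPKM.

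MCC950 was compared with no inhibitor to ask what blocking NLRP3 does to the stimulated cells. Of the 10 genes 6 were tested, and none was called (limma, adjusted p under 0.05), where 0% of 9835 genes were; 1168 genes had an unadjusted p under 0.05, and 1535 by edgeR on the recovered reads, which also called 0. Lgals3 was at 2.47, 2.77 and 2.29 FPKM without and 1.87, 2.03 and 2.37 FPKM with MCC950, a log2 difference of −0.19 (SE 0.09, limma adjusted p = 0.434). The libraries overlapped by 1 value on each side. Spp1 was at 58.3, 47.1 and 45.9 FPKM without and 57.7, 51.4 and 60.1 FPKM with it (0.16, SE 0.10, limma adjusted p = 0.521). Cd9 was at 55.5, 42.4 and 46.4 FPKM and at 53.6, 49.5 and 56.4 FPKM (0.15, SE 0.10, limma adjusted p = 0.554).

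Cd63, Fabp5 and Cd68 differed by less, with log2 differences of −0.01 (SE 0.06), 0.02 (SE 0.06) and 0.01 (SE 0.12). All 3 overlapped between the groups. The 4 genes under 1 FPKM did not enter the test. Gpnmb had 0, 0 and 4 reads without and 2, 3 and 10 reads with MCC950, and its exact two-sided permutation p was 0.3, where 3 against 3 libraries cannot give less than 0.1. For Lpl that p was 0.7 and for Itgax 1. No gene of the pathway lists was called. Plin2, which coats lipid droplets, was at 184 ± 15.9 FPKM in cells lacking the inhibitor and 220 ± 9.21 FPKM in cells given it (SD, n = 3 each, limma adjusted p = 0.390).

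**Figure D5:**
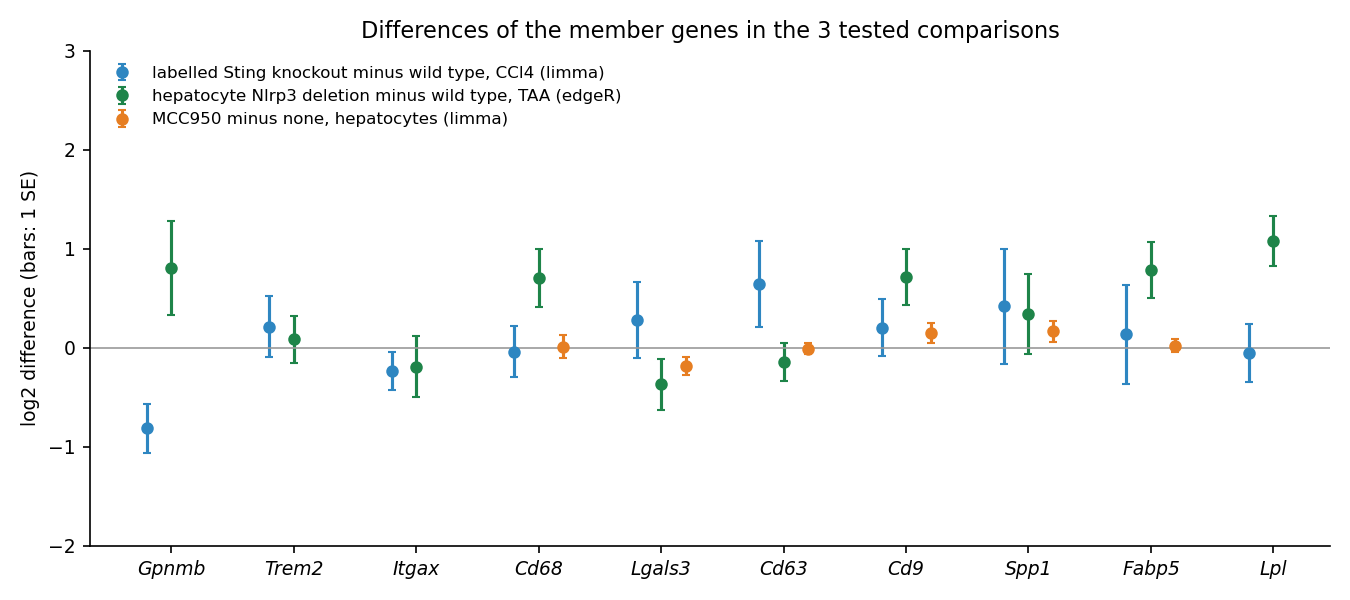
Log2 differences of the 10 genes in the 3 comparisons that were tested, with bars of 1 standard error; 4 genes under 1 FPKM in hepatocytes have no point there. The green point of Lpl (1.08) and the blue point of Gpnmb (−0.82) lie farthest from 0, and none passed an adjusted p of 0.05.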

How the data were processed

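RNA-seq of 21 mouse libraries was analysed within each of 3 tables. Per the submitters' processing notes, HISAT2 2.2.1, featureCounts 1.5.0-p3 and mm10 were used; no source used here gives the strand setting or annotation. The authors deposited raw counts and FPKM for TAA livers, per the file headers, and FPKM with gene lengths for the CCl4 and hepatocyte tables. In the latter tables each library has 1 unit of FPKM times length, and whole multiples of it made up 99.99% and 99.96% of values above 0 (tolerance 0.05 of a read), which gave the reads; no source used here says how the authors scaled FPKM.

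Limma 3.58.1 (trend, log2(FPKM + 1), genes averaging at least 1 FPKM, all groups of a table in 1 fit) tested the Sting, MCC950 and oil comparisons. EdgeR 4.0.16 (quasi-likelihood, TMM, filterByExpr) tested the TAA counts, in R 4.3.3; DESeq2 1.42.0 was an alternative. Two-sided p-values were adjusted by Benjamini-Hochberg over all genes tested, with calls at an adjusted p under 0.05. The tests were run on simulated data first. The 10 genes and all lists were chosen with earlier results of these data known. All 10 genes are named; from each list, the text names called genes without overlap and with the largest change at a mean of at least 1 FPKM (at most 2 per comparison), or the smallest p where none was called, and for likeness the first 5 genes. A gene that this rule picks in the MCC950 comparison is not reported here.

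Same-numbered libraries deviated together in every pair for CCl4 against oil (correlations 0.22, 0.32 and 0.52). They also did so for the Sting comparison (0.19, 0.18 and 0.12) and for MCC950 (0.18, 0.22 and 0.085). For TAA they did not (0.075, −0.036 and −0.024). No label states a pairing and differently numbered libraries were not correlated for reference, so whether the numbers pair libraries is not known. The main fits use no pairing.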

Additional observations from a re-analysis of the deposited data

How the results depend on the processing

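With the replicate block, 0 of the 10 genes were called in the Sting, MCC950 or Nlrp3 comparison, as without it; in CCl4 against oil the block brought the receptors and relatives of osteopontin and galectin-3 that rose from 3 to 5, and the other fatty acid binding proteins that fell from 1 to 2, and 2227 genes in all against 1766. With it the Nlrp3 comparison gave 2 genes against 322. Same-numbered libraries did not deviate together in every pair there. Of the 10 genes, 9 to 10 lay above oil in wild-type CCl4 liver whichever library was left out. Genes called with the Nlrp3 deletion were 1 without the filter, 1 with DESeq2, 2 with limma on FPKM and 0 to 5 over left-out libraries. Over all genes the Nlrp3 comparison gave 1 with RLE factors, 1593 without the filter, 2642 with limma on FPKM, 699 without mitochondrial, rRNA and pseudogene counts, 3659 with DESeq2 and 0 to 7555 over left-out libraries. CCl4 against oil gave 877 at a mean of at least 5 FPKM, where fewer genes were tested, 2790 with edgeR (both chosen after seeing the data, as were no filter and no trend there) and 936 to 1427 over left-out libraries. Without the filter the Sting and MCC950 comparisons each gave 2, and over left-out libraries 0 to 1. The causes were not tested. Relative to macrophage markers, 0 to 3 genes separated in the Sting comparison and 1 to 4 in the Nlrp3 comparison over left-out libraries. The share of all genes on that measure was not computed.

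Signs of differences that passed no test turned in some fits. On limma on FPKM the Nlrp3 differences of Lgals3, Cd63 and Itgax were 0.039, 0.23 and 0.097, and edgeR gave Fabp5 −0.065 in the Sting comparison. Over left-out libraries the Sting differences ran from −0.072 to 0.48 for Trem2, −0.049 to 0.48 for Cd9, −0.36 to 0.86 for Spp1, −0.038 to 0.71 for Lgals3, −0.34 to 0.66 for Fabp5, −0.23 to 0.15 for Lpl and −0.26 to 0.11 for Cd68. With MCC950 they ran from −0.019 to 0.071 for Fabp5, −0.041 to 0.021 for Cd63 and −0.057 to 0.11 for Cd68, and the Nlrp3 difference of Itgax from −0.28 to 0.055. Depth limits Gpnmb in oil liver (4 to 5 reads per library) and Gpnmb, Lpl, Itgax and Trem2 in hepatocytes.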
